A study of Mus musculus with 22 samples.

Results

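Levels of 6 genes of the circadian clock were read in sorted lung epithelial cells (ECs): the activators Arntl, Clock and Npas2, the repressor Cry1, and Nfil3 and Rora, which feed back on the activators. They are the 6 named genes that belong to the activating side of the clock or are known targets of repression by REV-ERB, out of 54373 genes in the deposited count tables and 21793 protein-coding genes among them. No measured value entered this choice, but results of these data were known when it was made. RNA of living CD45-EpCAM+ ECs from C57BL/6 wildtype (WT) mice and from mice labelled AhR-/- or CYP1B1-/-, both knockouts in all cells of the body and backcrossed to C57BL/6, was sequenced. At steady state, 4 WT, 3 AhR-/- and 3 CYP1B1-/- libraries were made from untreated mice. A further 4 libraries of each genotype came from mice sensitized and challenged through the nose with house dust mite extract (HDM). Per its methods, the study used adult mice of both sexes, matched for age and sex, but the sex of each library is not labelled. The hour of collection is not given in the sources used here. The labels number the libraries but do not say whether each is 1 animal, so p-values measure the spread between these libraries.

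The core clock is a loop of transcription and repression that runs in nearly every cell. BMAL1, encoded by Arntl, pairs with CLOCK or with its relative NPAS2 and binds E-boxes, which switches on the Per and Cry genes and the nuclear receptors REV-ERBα (Nr1d1) and REV-ERBβ (Nr1d2). PER and CRY proteins then inhibit the activators, while the REV-ERBs bind ROR response elements (ROREs) and repress genes such as Arntl, Npas2, Cry1, Nfil3 and Clock. RORα, the product of Rora, binds the same elements and activates. NFIL3 represses genes with D-box elements and is also needed for several immune cell lineages. AhR is a ligand-activated relative of CLOCK and BMAL1, and CYP1B1 is an enzyme that AhR induces and that can degrade AhR ligands.

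The promoters of Arntl, Nfil3 and Cry1 are shown because these genes stood lower together under the AhR-/- label at steady state and carry the elements through which REV-ERB and BMAL1 act. Npas2 stood lower there as well, but its window held neither a RORE core nor an E-box. Windows of 300 bases around RefSeq start sites (GRCm38.p6) matched all 6 genes with 9 windows. RORE cores, searched as TAGGTCA or TGGGTCA on both strands, were found in windows of 2 of the 6 genes. They lay in 1 of the 2 Arntl windows and in the only Nfil3 window, and 6.45% of all 32851 promoter windows held one. The E-box CACGTG was found in the only window of Cry1, against 7.15% of all windows. Capitals mark the RORE core in Arntl and Nfil3 and the E-box in Cry1, and each sequence is written 5′ to 3′ on the strand of its gene. The Arntl stretch, chr7:113207529-113207558 on the plus strand, lies just inside the transcript, with the core starting at base 31 from the start site. The Nfil3 stretch, chr13:52981040-52981289 on the minus strand, covers the 250 bases before the start site, and its core, read on the other strand, begins 12 bases before it. The Cry1 stretch, chr10:85185055-85185304 on the minus strand, is placed in the same way, with the E-box 60 bases before the start site.
Arntl: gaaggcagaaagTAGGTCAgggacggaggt
Nfil3: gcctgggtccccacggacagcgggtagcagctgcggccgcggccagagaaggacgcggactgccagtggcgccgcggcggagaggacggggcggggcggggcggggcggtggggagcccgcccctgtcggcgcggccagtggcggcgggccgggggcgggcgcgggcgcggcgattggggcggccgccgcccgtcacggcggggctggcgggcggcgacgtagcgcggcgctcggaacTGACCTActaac
Cry1: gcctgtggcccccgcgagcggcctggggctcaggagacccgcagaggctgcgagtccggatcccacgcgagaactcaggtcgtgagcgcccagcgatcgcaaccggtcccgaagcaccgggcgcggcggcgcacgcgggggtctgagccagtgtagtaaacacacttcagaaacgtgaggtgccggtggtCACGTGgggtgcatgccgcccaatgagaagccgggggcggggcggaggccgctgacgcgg
The D-box, searched as TTATGTAA or TTACGTAA, was found in windows of 0 of the 6 genes and in 1.06% of all windows. The core of the element that AhR binds, GCGTG, was found in the only windows of Npas2, Rora and Cry1 and in 2 of 3 Clock windows. Of all windows, 32.4% held it, and a gene with several windows has more chances of a match. These are matches of letters, and short motifs recur by composition alone. In the GENCODE M21 annotation (mm10), Arntl (ENSMUSG00000055116) spans chr7:113207465-113314126 and Clock (ENSMUSG00000029238) chr5:76209868-76304792. Npas2 (ENSMUSG00000026077) lies at chr1:39193731-39363236 and Cry1 (ENSMUSG00000020038) at chr10:85131700-85185064. Nfil3 (ENSMUSG00000056749) lies at chr13:52967209-52981073 and Rora (ENSMUSG00000032238) at chr9:68653786-69388246. Under 1% of the exon bases of Arntl (0.44%) and Rora (0.63%) overlap a gene on the opposite strand, and the other 4 overlap none.

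Total counts ranged from 10476829 to 17707000 per library at steady state and from 9654825 to 17878442 after HDM. The predicted gene Gm10800 took up to 71.9% of the counts of an HDM library, and the protein-coding counts outside it ranged from 2906316 to 16448289 there, against 7967139 to 14675250 at steady state. Neither targeted gene was lost from the counts: Ahr stood 0.85 above WT on the log2 scale at steady state under the AhR-/- label and 0.53 above it after HDM, and Cyp1b1 stood 2.07 and 2.22 above WT under the CYP1B1-/- label, none of them past the adjusted threshold. Reads are summed over all exons, so a transcript that lacks some of them would still be counted, and the libraries are named here by their labels only. Epcam, the sort marker, was counted in all 22 libraries, and Ptprc, which encodes the excluded CD45, ranged from 2.65 to 79.8 CPM (counts scaled to a common library total) at steady state and from 11.1 to 432 CPM after HDM. The sum of 19 hematopoietic markers was 350 to 760 CPM at steady state and 167 to 2670 CPM after HDM. Libraries 3 and 4 labelled AhR-/- after HDM stood apart from the other 10 of that table, with summed Y-linked genes at 138 and 143 CPM against at most 0.23 CPM, so the HDM groups compared were not matched in Y-linked reads. Library 2 labelled CYP1B1-/- at steady state also stood apart, with the Y-linked sum at 94.3 CPM against 228 to 341 CPM in the other 9. HDM libraries and steady-state libraries are separate tables from runs of their own, so HDM treatment cannot be told apart from the sequencing run. The states also differed in Y-linked reads. On 1 common scale over both tables, the sum in WT was 167 to 196 CPM at steady state and at most 0.256 CPM after HDM. Under the CYP1B1-/- label it was 66.6 to 236 CPM and at most 0.201 CPM. In these genotypes HDM treatment cannot be told apart from this difference either, and the interactions use the same libraries.

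At steady state, 4 of the 6 genes, Arntl, Npas2, Cry1 and Nfil3, were lower in all 3 libraries labelled AhR-/- than in all 4 WT libraries, at 0.292 to 0.463 of the WT level, while Clock and Rora overlapped. Such a full separation of the groups in either direction was seen for 4.43% of the 15547 genes tested. With edgeR's quasi-likelihood test and Benjamini-Hochberg adjustment over all genes, 0 of the 6 passed an adjusted p of 0.05, and 0% of all genes did (0 of 15547). At an unadjusted p under 0.05 stood 4 of the 6 genes and 1.69% of all genes (263). Arntl and Cry1 ranked 2 and 6 by p among all genes. The likelihood ratio test of edgeR, fitted to the same counts, passed these 2 genes with adjusted p-values of 0.00143 and 0.00327, among 0.0708% of all genes (11), and DESeq2 passed the same 2 of the 6.

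**Figure D1:**
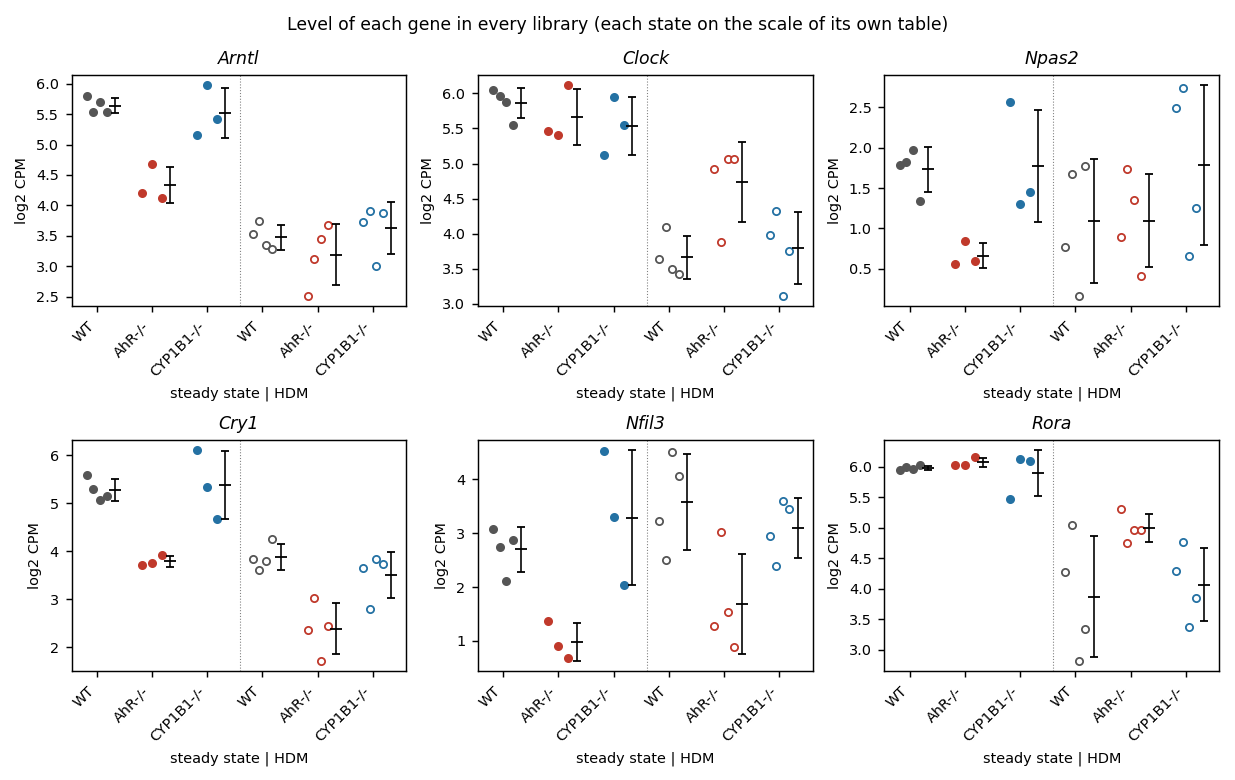
Level of each gene as log2 CPM in every library (points; filled at steady state, open after HDM) by genotype label, with the mean and SD beside them. Steady-state and HDM values are on the scales of separate tables and are not comparable across the dotted line. Arntl, Npas2, Cry1 and Nfil3 sit lower in the 3 steady-state AhR-/- libraries than in WT, and Rora does not.

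Arntl, which encodes the partner of CLOCK and NPAS2, was at 55.4, 46.2, 52.0 and 46.4 CPM in the WT libraries and at 18.3, 25.4 and 17.4 CPM in those labelled AhR-/-. The groups did not overlap, and the lowest WT library stood well above the highest of the knockout label. The difference was -1.29 on the log2 scale (standard error, SE, of 0.22, 95% interval -1.77 to -0.82, unadjusted p = 7.11e-05, adjusted p = 0.480 in edgeR's quasi-likelihood test). Npas2, which can stand in for CLOCK, was read at low levels, with 3.35, 3.45, 3.84 and 2.47 CPM in WT and 1.38, 1.71 and 1.43 CPM in the libraries labelled AhR-/-. These groups also did not overlap, at 16 to 41 reads per library, and the log2 difference was -1.11 (SE 0.37, adjusted p = 0.99987 in the edgeR test). Clock, the other partner of BMAL1, was at 66.4, 62.4, 59.0 and 46.9 CPM in WT and at 43.9, 42.3 and 69.5 CPM in the libraries labelled AhR-/-. Here 1 of the 3 lay above all WT libraries and the other 2 below them, and the 95% interval of the log2 difference ran from -0.69 to 0.34.

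Cry1, the main repressor of the BMAL1 and CLOCK pair, was at 48.1, 39.1, 33.6 and 35.3 CPM in WT and at 12.9, 13.3 and 15.0 CPM in the libraries labelled AhR-/-. The 3 values of the knockout label lay close together, far under the lowest WT library. The log2 difference was -1.50 (SE 0.29, 95% interval -2.13 to -0.88, adjusted p = 0.520 in the edgeR test). Nfil3, the D-box repressor, was at 8.33, 6.63, 4.23 and 7.29 CPM in WT against 2.5, 1.79 and 1.51 CPM. The groups did not overlap, and the difference of -1.77 (SE 0.51, 95% interval -2.89 to -0.66, adjusted p = 0.99987 in the edgeR test) was the lowest of the 6. Rora, the activator at the same elements as the REV-ERBs, was at 61.3, 63.5, 62.2 and 65.1 CPM in WT and at 65.1, 65.1 and 71.0 CPM in the libraries labelled AhR-/-. Its groups overlapped, with a log2 difference of 0.09 and a 95% interval from -0.29 to 0.46.

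Both REV-ERB receptors stood the other way. Nr1d1 was at 14.4 to 49.7 CPM in WT and at 106 to 178 CPM in the libraries labelled AhR-/-, a log2 difference of 2.19 (SE 0.45, adjusted p = 0.554 in the edgeR test). Nr1d2 differed by 1.57 (SE 0.32, adjusted p = 0.554), also without overlap. Rorb, which encodes a relative of RORα, was at 3.79 to 10.5 CPM in WT and 6.75 to 8.20 CPM in the libraries labelled AhR-/-. Of 19 other clock genes tested, 0 passed the adjusted threshold, while 9 had an unadjusted p under 0.05, 8 of them higher and 1 lower. Their median log2 difference was 0.40 against -0.01 over all genes, and that of the 6 genes was -1.20. Among 7 other genes known as REV-ERB targets, such as inflammatory mediators, 0 passed and 2 had an unadjusted p under 0.05, both lower.

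The hematopoietic markers were also lower in these libraries than in WT: 17 of 18 tested had a negative log2 difference, with a median of -2.02, although their sum overlapped (386 to 394 CPM against 350 to 760 CPM). WT library 1 held the most hematopoietic signal (760 CPM), and the part of these markers in the differences was not tested. The adjusted p-values of Arntl and Cry1 turned on a single library of the third genotype. Without library 2 labelled CYP1B1-/-, which is in the fit but in neither group compared, Arntl and Cry1 passed with adjusted p-values of 0.00775 and 0.00617 and the same log2 differences, among 8 genes in all. In the other 9 fits that each left out a library, 0 of the 6 passed, and over all 10 the log2 differences ranged from -1.48 to -1.20 for Arntl, from -1.58 to -1.39 for Cry1, from -1.998 to -1.63 for Nfil3 and from -1.23 to -1.03 for Npas2.

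**Figure D2:**
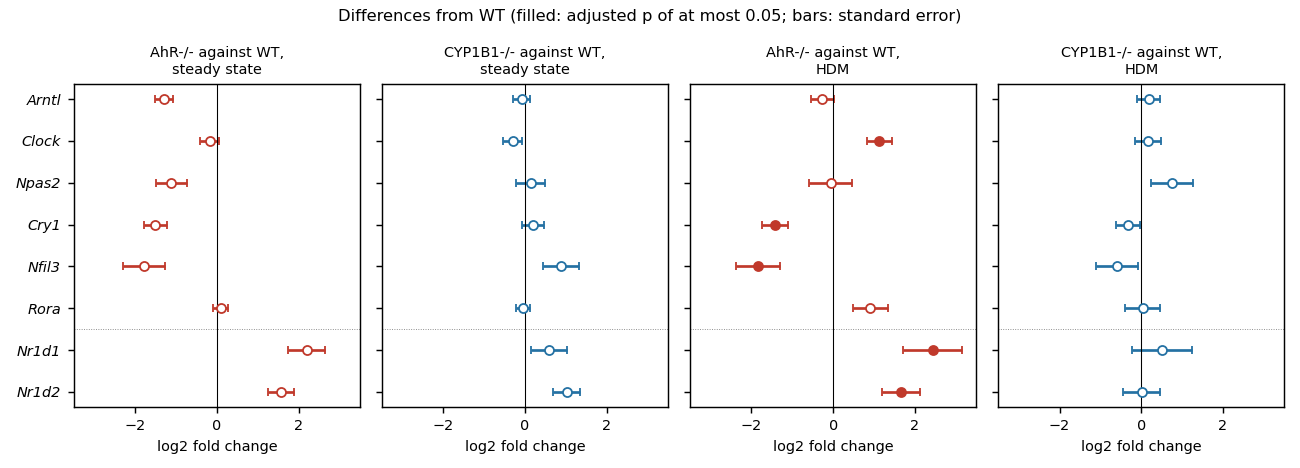
Log2 fold change against WT with its standard error for the 6 genes and the receptors Nr1d1 and Nr1d2, by genotype label and state, with filled points at an adjusted p of at most 0.05. The AhR-/- panels show Cry1 and Nfil3 below 0 and both receptors above 0 in each state, and Clock above 0 only after HDM.

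In the steady-state libraries labelled CYP1B1-/-, 0 of the 6 genes passed the test and each overlapped WT, against 0.0129% of all genes that passed and 3.07% whose groups did not overlap. Of 18 hematopoietic markers, 17 had a negative log2 difference there, with a median of -1.90. At an unadjusted p under 0.05 stood 0 of the 6 and 5.8% of all genes (901). Arntl was at 35.6, 63.0 and 42.7 CPM and Cry1 at 68.4, 40.5 and 25.5 CPM, a wider spread than in either other group. Nfil3 was at 23.1, 9.81 and 4.02 CPM, and library 2 was the highest of the 3 for Nfil3, Cry1 and Npas2 and the lowest for Arntl, Clock and Rora. The 95% intervals of the log2 differences from WT ran from -0.54 to 0.37 for Arntl, from -0.39 to 0.78 for Cry1 and from -0.10 to 1.86 for Nfil3. Set against each other, the knockout labels differed in the same 4 genes that parted AhR-/- from WT, all lower without overlap in the libraries labelled AhR-/-, against 12% of all genes without overlap. The log2 differences were -1.21 for Arntl, -1.25 for Npas2, -1.70 for Cry1 and -2.66 for Nfil3. None of the 6 passed the quasi-likelihood test of edgeR (0.00643% of all genes did), 4 had an unadjusted p under 0.05, as did 4.23% of all genes (657), and 3 (Arntl, Cry1 and Nfil3) passed the likelihood ratio test and DESeq2, among 9 and 14 genes in all. Without library 2 labelled CYP1B1-/-, Arntl and Cry1 passed the quasi-likelihood test between the knockout labels, among 7 of 15831 genes. The comparisons of the AhR-/- label with WT and with CYP1B1-/- use the same 3 libraries labelled AhR-/-.

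After HDM, 3 of the 6 genes passed the threshold of 0.05 in the adjusted quasi-likelihood test of edgeR when the AhR-/- label was set against WT: Clock was higher, at 2.19 times the WT level, and Cry1 and Nfil3 were lower, at 0.373 and 0.281 of it. That threshold was also passed by 22.1% of the 14161 genes tested, and the groups did not overlap for 1 of the 6 genes, Cry1, against 24.9% of all genes. Arntl and Npas2 overlapped WT.

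Cry1 was at 14.2, 12.0, 13.8 and 19.0 CPM in WT and at 5.10, 8.05, 2.91 and 5.30 CPM in the libraries labelled AhR-/-. All 4 lay under the lowest WT library, the lowest of them resting on 8 reads. The log2 difference was -1.42 (SE 0.31, 95% interval -2.08 to -0.76, adjusted p = 0.0261 in the edgeR test). Nfil3 was at 9.35, 5.45, 22.8 and 16.7 CPM in WT and at 2.40, 8.12, 2.55 and 1.72 CPM in the libraries labelled AhR-/-. In 3 of the latter it was below all WT libraries, while library 2 lay inside their range. The difference was -1.83 (SE 0.54, 95% interval -2.99 to -0.67, adjusted p = 0.0352 in the edgeR test).

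Clock was at 12.4, 16.8, 11.1 and 10.7 CPM in WT and at 30.2, 14.7, 33.1 and 33.4 CPM in the libraries labelled AhR-/-. Libraries 1, 3 and 4 of that label stood far above WT and library 2 within it, for a log2 difference of 1.13 (SE 0.31, 95% interval 0.46 to 1.80, adjusted p = 0.0300 in the edgeR test). Rora showed a like order without passing, at 19.4, 32.7, 6.93 and 10.1 CPM in WT and 39.5, 26.7, 30.9 and 31.0 CPM in the libraries labelled AhR-/-. The WT libraries spread widely for this gene, and the difference of 0.91 had a 95% interval from -0.02 to 1.84 (adjusted p = 0.138 in the edgeR test). Arntl was at 11.5, 13.2, 10.1 and 9.70 CPM in WT and at 5.69, 8.63, 10.5 and 12.6 CPM in the libraries labelled AhR-/-. The groups overlapped, with a 95% interval of the difference from -0.86 to 0.34. Npas2 was at 1.02 to 3.38 CPM in WT and at 1.19 to 3.26 CPM in the libraries labelled AhR-/-, with 6 to 74 reads per library, and its 95% interval, from -1.21 to 1.08, excludes neither a higher nor a lower level of about that size.

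The summed hematopoietic markers of the same libraries parted the groups as well. They stood at 586, 729, 225 and 167 CPM in the libraries labelled AhR-/- and at 2017, 1148, 2670 and 2049 CPM in WT, with no overlap. Library 2 labelled CYP1B1-/- had a sum of 191 CPM, like the AhR-/- libraries, and its Cry1 (6.66 CPM) and Nfil3 (5.00 CPM) lay below the other 3 of its label and within the AhR-/- range. Its Clock (19.7 CPM) and Rora (26.9 CPM) were the highest of its label. In the other 3 libraries labelled CYP1B1-/-, with sums of 1162 to 2566 CPM, Cry1 was at 12.3 to 14.3 CPM, within the WT range. None of the 19 hematopoietic markers was at 0 in 11 of the 12 libraries, and 1 was in library 3 labelled AhR-/-. The sum of 4 alveolar type 1 markers was 5286, 2001, 9167 and 11923 CPM in the libraries labelled AhR-/- against 395 to 3189 CPM in WT. The sum of 4 general epithelial markers was 508 to 598 CPM against 377 to 491 CPM in WT, and that of 3 ciliated cell markers 78.4 to 139 CPM against 40.1 to 72.6 CPM, both without overlap. Alveolar type 2 markers summed to 5486 to 48564 CPM against 3139 to 14463 CPM, and club cell markers to 1219 to 5438 CPM against 161 to 1543 CPM, both with overlap. The part of these epithelial markers in the result was not tested. In such sorted pools, fewer cells of a type and less RNA of a gene per cell cannot be told apart.

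**Figure D3:**
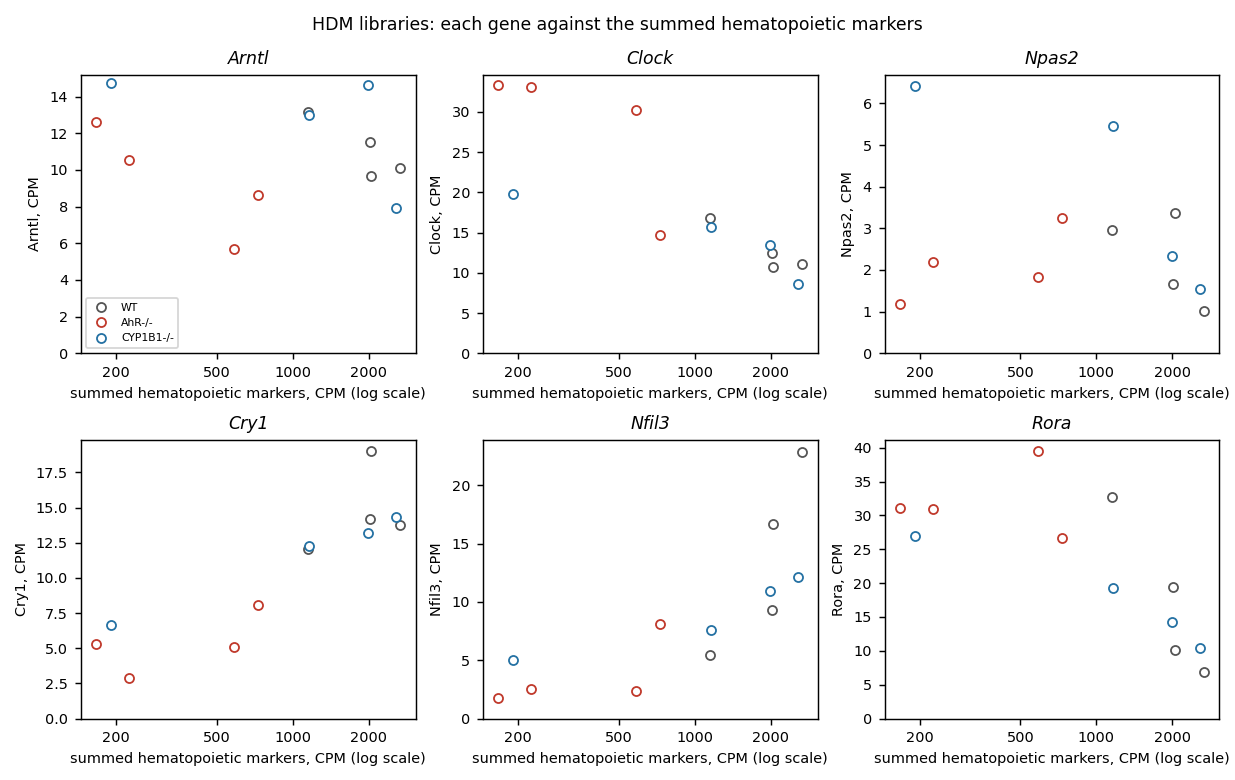
CPM of each gene in the 12 HDM libraries against the summed CPM of 19 hematopoietic markers (log scale), by genotype label. The 4 AhR-/- libraries and CYP1B1-/- library 2 lie at 167 to 729 CPM on the axis, with Cry1 at 2.91 to 8.05 CPM, and the other 7 libraries lie at 1148 CPM and above, with Cry1 at 12.0 to 19.0 CPM.

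A hematopoietic score was taken as the mean log2 CPM of the markers, not their sum. By this mean the groups overlapped, with library 2 labelled AhR-/- at 4.56 and WT libraries 2 and 4 at 4.53 and 4.42. Libraries 1, 3 and 4 labelled AhR-/- lay below all WT libraries. With this score as a covariate, 0 of the 6 genes and 0 of all genes passed. The differences shrank to 0.45 for Clock, -0.99 for Cry1 and -0.997 for Nfil3, for which edgeR gave adjusted p-values of 0.57, 0.439 and 0.478. Within the 10 libraries with Y-linked sums of at most 0.23 CPM, which leaves libraries 1 and 2 of the AhR-/- label, they were 0.86, -1.18 and -1.43, with adjusted p-values of 0.231, 0.202 and 0.241, and again 0 of all genes passed. Single libraries also decided the calls. Clock remained past the threshold in 6 of 12 fits that each left out a library, Cry1 in 7 and Nfil3 in 5, with adjusted p-values of up to 0.0929, 0.0921 and 0.126. None of the 3 passed without library 1, 3 or 4 labelled AhR-/- or without WT library 3 or 4, fits in which 0 genes passed in all. Clock and Nfil3 also did not pass without WT library 1, nor Nfil3 without library 1 labelled CYP1B1-/-. No direction of the 3 changed in these fits. With the replicate number as a block, 0 of the 6 passed, and 1 gene passed in all. Without WT library 2, Rora passed as well, at 1.36 (adjusted p = 0.0328, among 3366 of 14956 genes), and without library 2 labelled AhR-/- the difference of Nfil3 was -2.63.

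**Figure D4:**
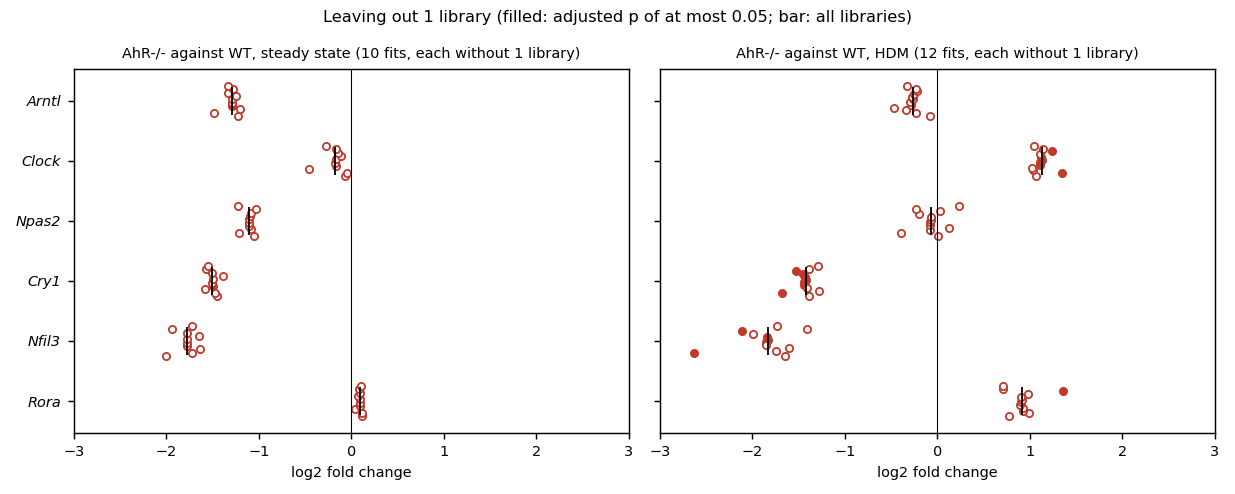
Log2 fold change of each gene between libraries labelled AhR-/- and WT in fits that each leave out 1 library (points, filled at an adjusted p of at most 0.05) and with all libraries (bars). At steady state Arntl, Npas2, Cry1 and Nfil3 stay below 0 in 10 fits, and after HDM Clock, Cry1 and Nfil3 keep their sign in 12 fits while their adjusted p crosses the threshold.

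Of the other clock genes, 6 of 20 tested were higher in the HDM libraries labelled AhR-/- and 0 lower, where 22.1% of all genes passed in either direction. They included Bhlhe41 (log2 difference 1.98), Per3 (2.33), Per2 (1.75), Nr1d1 (2.44) and Nr1d2 (1.66). Nr1d1 was at 3.82, 11.6, 1.94 and 1.55 CPM in WT and at 16.4, 28.3, 22.2 and 27.8 CPM in the libraries labelled AhR-/-, without overlap (SE 0.73, adjusted p = 0.0364 in the edgeR test). The median over the 20 genes was 0.84 against 0.00 over all genes. Of 10 other REV-ERB targets tested, 1 passed, Insig2, which restrains sterol synthesis and was higher by 1.40. The hematopoietic markers had 4 lower and 0 higher of 19.

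Between the HDM libraries labelled CYP1B1-/- and WT, 0 of the 6 genes passed the edgeR test, 0 had an unadjusted p under 0.05 and each overlapped, where 0% of all genes passed, 1.65% (233) had an unadjusted p under 0.05 and the groups of 1.19% did not overlap. The 95% intervals were widest for Nfil3, from -1.70 to 0.51, and Npas2, from -0.38 to 1.88, and ran from -0.41 to 0.77 for Arntl and from -0.50 to 0.84 for Clock. Changes by 1 log2 unit in Nfil3, downward, and in Npas2, upward, are therefore not excluded. Between the knockout labels after HDM, 0 of the 6 passed and each overlapped, against 0.00706% of all genes that passed and 7.56% that did not overlap. Clock was higher by 0.96 and Cry1 lower by 1.09 on the log2 scale in the libraries labelled AhR-/-, where edgeR gave adjusted p-values of 0.0719 and 0.0638. Nfil3 had -1.24 (unadjusted p = 0.0374, adjusted p = 0.142). Without library 2 labelled AhR-/-, Clock, Cry1 and Nfil3 passed at 1.18, -1.35 and -2.04, among 2683 of 14284 genes tested in place of 1 gene. Without library 2 labelled CYP1B1-/-, Clock and Cry1 passed at 1.13 and -1.28, among 3098 of 14965 genes, so these gains were shared by many genes.

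HDM libraries were then set against steady-state libraries of the same genotype, in a fit over all 22 libraries and on 1 common scale. In WT, 4 of the 6 genes passed, among 38.4% of the 16639 genes tested: Arntl, Clock and Rora were lower after HDM and Nfil3 was higher. Arntl was at 36.5, 31.4, 35.8 and 35.4 CPM at steady state on this scale and at 18.2, 14.7, 15.1 and 11.6 CPM after HDM. Every HDM library lay under every steady-state library, with a log2 difference of -1.22 (SE 0.27) that edgeR gave an adjusted p = 0.000856. Clock was at 43.7, 42.4, 40.6 and 35.8 CPM against 19.7, 18.8, 16.6 and 12.8 CPM, again without overlap, a difference of -1.26 (SE 0.29, adjusted p = 0.00126). Nfil3 was at 5.49, 4.51, 2.91 and 5.57 CPM against 14.8, 6.09, 34.1 and 19.9 CPM, higher by 2.02 log2 units (SE 0.54, adjusted p = 0.00477), with every HDM library above steady state and 1 of them barely. Rora had -0.98 (SE 0.33, adjusted p = 0.0223), and its call was lost without WT steady-state library 4, WT HDM library 3 or WT HDM library 4, at adjusted p-values of 0.0528, 0.0891 and 0.081. Cry1, at -0.44 and without overlap, and Npas2, at 0.35, did not pass. The hematopoietic markers had 15 of 19 higher in the same comparison. On the common scale, the summed alveolar type 1 markers were at 14653 to 17407 CPM at steady state and at 473 to 3777 CPM after HDM. The ciliated sum was at 267 to 485 CPM against 49.1 to 110 CPM and the general epithelial sum at 1116 to 1646 CPM against 481 to 778 CPM, all without overlap. The alveolar type 2 sum was at 2103 to 5009 CPM against 3756 to 22895 CPM, with overlap. The Y-linked sum was at 167 to 196 CPM against at most 0.256 CPM, without overlap. The part of these markers in the differences was not tested.

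In the libraries labelled CYP1B1-/-, 4 of the 6 passed as lower after HDM, among 33.4% of all genes. Arntl differed by -1.08 (SE 0.28, adjusted p = 0.00431), Cry1 by -1.04 (adjusted p = 0.0207), Rora by -1.0 (adjusted p = 0.0317) and Clock by -0.94 (adjusted p = 0.0193), all in the edgeR test. Nfil3 stood at 0.49, with steady-state values of 16.3, 7.45 and 2.95 CPM and HDM values of 7.76, 6.05, 18.1 and 16.9 CPM that overlapped. Arntl lost its call without steady-state library 3 of that label (-0.78, adjusted p = 0.0675), and Cry1 without its steady-state library 2 (-0.44, adjusted p = 0.341) or its HDM library 1 or 2 (-0.83 and -0.72). Clock and Rora remained past the threshold in 16 and 13 of 22 fits that each left out a library, with differences nearest to 0 of -0.68 and -0.77. Of the libraries whose absence ended these calls, 2 for Clock and 3 for Rora were HDM libraries labelled AhR-/-, which are in neither group compared, and 1 for Clock was WT HDM library 2. With RLE normalization, which moved the median of all genes from -0.02 to 0.11, Rora had -0.83 and did not pass. Rora did not pass with DESeq2 either. Without a filter, only Arntl of the 6 passed, and without HDM libraries 3 and 4 labelled AhR-/- only Arntl and Cry1. Npas2, at 0.83, passed only without steady-state library 2 of that label (1.53). On the common scale, alveolar type 1 markers summed to 10406 to 19097 CPM at steady state against 349 to 3370 CPM after HDM, ciliated markers to 268 to 475 CPM against 47.9 to 121 CPM and general epithelial markers to 1466 to 1597 CPM against 519.8 to 698 CPM. Alveolar type 2 markers were higher after HDM, at 668 to 2858 CPM against 5157 to 36138 CPM, and none of these sums overlapped. The Y-linked sum was 66.6 to 236 CPM at steady state and at most 0.201 CPM after HDM, also without overlap. Of the hematopoietic markers 14 of 19 were higher and 1 lower, and the part of all these markers was not tested.

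In the libraries labelled AhR-/-, 2 of the 6 passed, both higher after HDM, among 20.6% of all genes. Npas2 was at 0.958, 1.21 and 1.05 CPM at steady state and at 2.65, 4.38, 2.73 and 1.59 CPM after HDM, without overlap. The log2 difference was 1.42 (SE 0.46, adjusted p = 0.0315 in the edgeR test). Nfil3 was at 1.74, 1.26 and 1.11 CPM against 3.48, 10.9, 3.18 and 2.30 CPM, also without overlap and with HDM library 2 well above the rest. It differed by 1.91 (SE 0.64, adjusted p = 0.0361). Both calls rest on 3 steady-state libraries, and neither held without any 1 of them or without HDM library 2, while that of Npas2 was also lost without HDM library 1. Neither call held with the replicate number as a block. Arntl was at 12.7, 18 and 12.7 CPM against 8.24, 11.6, 13.2 and 16.8 CPM, a difference of -0.23 with a 95% interval from -0.83 to 0.36. Clock, at 0.01, and Rora, at -0.14, also overlapped between the states, with intervals from -0.62 to 0.64 and from -0.87 to 0.59. On the common scale, the alveolar type 1 sum was 15836 to 17075 CPM at steady state and 2688 to 15894 CPM after HDM in these libraries, with overlap. The ciliated sum was 306 to 309 CPM and 105 to 174 CPM, the general epithelial sum 1254 to 1447 CPM and 682 to 865 CPM and the alveolar type 2 sum 1303 to 4928 CPM and 7313 to 70310 CPM, all without overlap. The Y-linked sum was 177 to 250 CPM at steady state and 0.251 to 191 CPM after HDM, with overlap. In the same comparison, 14 of 19 hematopoietic markers were higher and 1 lower. The part of all these markers was not tested.

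Whether the states differed by more in 1 genotype than in WT was tested as an interaction. For the AhR-/- label, 0 of the 6 genes and 0% of all genes passed (0 of 16639). Clock had 1.27 (95% interval 0.40 to 2.14, unadjusted p = 0.00612, adjusted p = 0.150 in the edgeR test) and Arntl 0.99 (0.17 to 1.80, unadjusted p = 0.0195, adjusted p = 0.193), against 18.3% of all genes with an unadjusted p under 0.05. Clock passed with DESeq2, among 1236 genes, and without HDM library 2 labelled AhR-/- (1.51, adjusted p = 0.0256, among 1017 genes). Cry1 and Nfil3 had 0.06 and -0.11, with intervals from -0.93 to 1.04 and from -1.86 to 1.64. For the CYP1B1-/- label, 0 of the 6 and 0% of all genes passed, and 0 of the 6 had an unadjusted p under 0.05, against 2.3% of all genes (382). The widest of its differences was Nfil3 at -1.53, with an interval from -3.12 to 0.06.

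Other clock genes were counted in the same way. In WT, 3 of 20 were higher and 7 lower after HDM, where 38.4% of all genes passed, and in the libraries labelled CYP1B1-/- 1 was higher and 8 lower, where 33.4% did. Bhlhe40, a repressor at E-boxes, was higher by 5.08 and 5.63 on the log2 scale, and Cry2, the paralogue of Cry1, lower by 2.42 and 3.31. In the libraries labelled AhR-/-, 2 were higher, Bhlhe40 among them, and 1 lower (Cry2), where 20.6% of all genes passed. Nr1d1 was lower by 1.84 in WT (adjusted p = 0.0210 in the edgeR test) and by 2.0 in the libraries labelled CYP1B1-/- (adjusted p = 0.0189), and had -1.55 in those labelled AhR-/- (adjusted p = 0.0785). Of 10 other REV-ERB targets, 4 were higher and 1 lower in WT, 4 higher in the libraries labelled AhR-/- and 7 higher in those labelled CYP1B1-/-. Those higher in all 3 were the neutrophil attractant Cxcl5 (5.73, 7.20 and 6.05), Ccl2 and Il1b, inflammatory genes that leukocytes and epithelium can both express.

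On the common scale, the groups can be put in order for each gene. Arntl ran from WT and CYP1B1-/- at steady state (both 34.8 CPM) down to AhR-/- after HDM (12.5 CPM), and the only neighbours that did not overlap were steady-state CYP1B1-/- and HDM CYP1B1-/- (16.4 CPM). The steady-state AhR-/- libraries, at 14.5 ± 3.04 CPM (SD, n = 3), stood next to WT after HDM at 14.9 ± 2.70 CPM (SD, n = 4). For Clock and Rora, HDM CYP1B1-/- and HDM WT had the lowest means, and the HDM AhR-/- libraries had means of 37.4 and 43.3 CPM. The only neighbours that did not overlap were steady-state CYP1B1-/- and HDM CYP1B1-/- for Clock and HDM AhR-/- and HDM CYP1B1-/- for Rora, while groups farther apart in the order overlapped across these gaps: the lowest HDM AhR-/- library for Clock (19.8 CPM) lay under the highest HDM CYP1B1-/- library (23.9 CPM), and the highest HDM WT library for Rora (36.5 CPM) above the lowest HDM AhR-/- library (35.9 CPM). For Cry1 the only neighbours without overlap were WT at steady state (27.1 CPM) and WT after HDM (19.8 CPM), although steady-state CYP1B1-/-, ranked above both, reached down to 18.7 CPM. Both AhR-/- groups closed the order of Cry1 at 9.81 and 7.23 CPM. For Npas2 and Nfil3 the only gap lay above the steady-state AhR-/- libraries, which came last at 1.07 and 1.37 CPM. Levels per kilobase of exon use the scale of each table on its own and are not comparable between the states. By this measure Cry1 was the most abundant of the 6 in WT at steady state, with 11.7 CPM per kilobase. Arntl followed with 6.65, and Npas2 was the least, with 0.684. In the steady-state AhR-/- libraries Rora led with 5.13 CPM per kilobase, ahead of Cry1 with 4.12. In WT after HDM, Nfil3 led with 6.70.

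Across all 22 libraries, after the mean of each table was taken from the log2 CPM values, some of the 6 genes varied together in pairs. Arntl and Npas2 had r of at most 0.51 with any other of the 6. These correlations share libraries and genotype differences and are descriptive. Cry1 and Nfil3 correlated with r = 0.90, and with r = 0.82 in the 15 libraries outside the AhR-/- label. Of 16639 genes, Nfil3 was the closest to Cry1 and Cry1 the closest to Nfil3. Both correlated negatively with Nr1d1 (r = -0.81 for Cry1 and -0.78 for Nfil3, or -0.62 and -0.58 without the AhR-/- label). Clock and Rora correlated with r = 0.78 (0.76 without that label) and positively with Nr1d1 (0.57 and 0.76). Arntl had r = 0.08 with Clock over all libraries and 0.91 without the AhR-/- label, so the transcripts of these partners ran in parallel in WT and CYP1B1-/- libraries and came apart with the AhR-/- libraries included. Arntl had r = -0.37 with Nr1d1 over all libraries and 0.43 without that label.

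**Figure D5:**
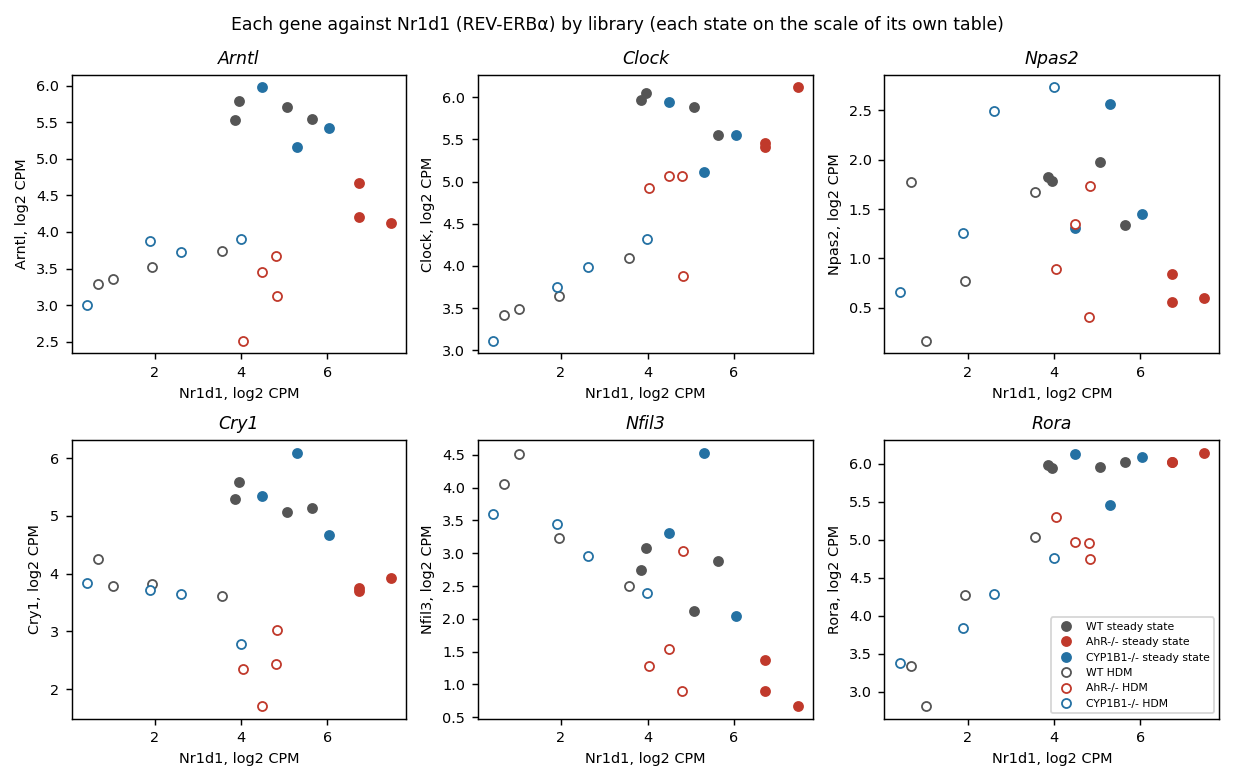
Log2 CPM of each gene against that of Nr1d1 (REV-ERBα) in every library, by genotype label, filled at steady state and open after HDM, each state on the scale of its own table. The steady-state AhR-/- libraries lie farthest right, with the lowest Arntl, Npas2, Cry1 and Nfil3 of their table, and the 3 HDM libraries of lowest Nr1d1 hold the 3 lowest values of Clock and of Rora.

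The genes whose pattern was closest to each of the 6 differed between them. Clock was nearest to Mon2 (r = 0.97), Ubr3 and Mpp7, and farthest from Slc9a3r1 (r = -0.94), Lmnb2 and Pik3r2. Rora was nearest to Yap1 (r = 0.96), Arhgef12 and Zcchc14, and farthest from Fam234b (r = -0.90), Ndc1 and Fam206a. Cry1 and Nfil3 shared Chst7 (r = 0.86 and 0.88) among the nearest and Atxn1 (r = -0.86 and -0.88) among the farthest. Nlrc5 was the other gene near Cry1 and Nf2 near Nfil3, and Oxr1 was far from Cry1, as Rnf25 and Ext1 were from Nfil3. Arntl had no such close match, with Paqr5 (r = 0.68), Acp1 and Adm nearest and Epc1 (r = -0.70), Ahr (r = -0.65) and Srsf2 farthest. Npas2, with few reads, was nearest to Slit3 (r = 0.84), Frg2f1 and Hes2 and farthest from Leprot (r = -0.85), Tpm3 and Cxcl16.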

How the data were processed

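RNA of sorted lung ECs was sequenced in 22 libraries. Per the labels and the methods, the authors cleaned reads with bbduk, aligned them with GSNAP (2020-03-12) against mm10 and used featureCounts 2.0.0 for counting. The deposited values are raw counts by gene, without normalization, in 1 table for steady state and 1 for HDM. Strand and multimapping settings are not given in the sources used here.

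Of 54373 genes listed, 54147 were in GENCODE M21 and 21793 of them, the protein-coding ones, were kept. The filter filterByExpr (minimum count 10, total 15), TMM normalization and robust glmQLFit with glmQLFTest were applied in edgeR 4.0.16 (R 4.3.3), with the 3 genotypes of a table in 1 fit and with both tables in 1 fit for state and interaction. The standard error of a log2 fold change was taken from its size and the F statistic. CPM use TMM library sizes, and log2 CPM a prior count of 1. A count of 3 equals 0.181 to 0.301 CPM at steady state and 0.0742 to 1.09 CPM after HDM. No 2 replicates were duplicates (chi-square per degree of freedom of at least 7.98). The scripts were tested on simulated data.

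The members and lists were chosen with earlier results of these data known. The text names the 6 members, Nr1d1, Nr1d2, Rorb and the check genes Ahr, Cyp1b1, Epcam and Ptprc. It also names list genes past the threshold, up to 10 per comparison, and the 3 nearest and 3 farthest genes by Pearson correlation. Some genes that this rule takes in are not reported here. Gm10800 was named after its values were seen. Alternatives were the likelihood ratio test, DESeq2 1.42.0, RLE normalization, no filter, the replicate number as a block, a hematopoietic covariate, leaving out the 2 HDM libraries with Y-linked sums of 138 and 143 CPM (Y-high), and leaving out each library. Of these, the fit over both tables without the Y-high HDM libraries was chosen after seeing the data.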

Additional observations from a re-analysis of the deposited data

Results flagged for a closer look

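Among 24 sets of 4 libraries of 1 gene and 1 group, 1 held a library far from the others, where chance gives about 1 in 20 sets. Clock in HDM library 2 labelled AhR-/- stood at 3.88 on the log2 CPM scale, while the other 3 libraries of that group lay between 4.92 and 5.07. The same library had the highest Nfil3 (8.12 CPM) and Cry1 (8.05 CPM) of its group. Without it the difference of Clock from WT after HDM was 1.35 in place of 1.13, and that of Nfil3 was -2.63 in place of -1.83. None of the 6 genes passed the interaction of genotype and HDM, and none differed from WT in opposite directions at steady state and after HDM in every library.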

How the results depend on the processing

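Of the log2 differences of the 6 genes, 321 kept their direction and side of the threshold under alternatives other than leaving out a library, 18 lost a call, 15 gained one and 12 changed sign. With the likelihood ratio test, 11 genes and 2 of the 6 passed for AhR-/- against WT at steady state, 9 and 3 for AhR-/- against CYP1B1-/-, 2458 and 2 for that comparison after HDM, and 1 gene for CYP1B1-/- against WT after HDM. With DESeq2 these counts were 13 and 2, 14 and 3, 2906 and 2, and 1, with 5 genes for CYP1B1-/- against WT at steady state and 1236 genes and 1 of the 6 for the AhR-/- interaction. Without a filter, 1802 genes passed for AhR-/- against WT after HDM, 0 between the knockout labels, and 1 of the 6 between the states in CYP1B1-/-. Same-numbered libraries correlated by -0.05 to 0.22 at steady state and by -0.63 to 0.81 after HDM, so the numbers were not taken as pairs. With the replicate block, 0 genes passed for CYP1B1-/- against WT and against AhR-/- at steady state, 1 gene and 0 of the 6 for AhR-/- against WT after HDM (Clock 1.15, Cry1 -1.40, Nfil3 -1.75), and 0 of the 6 between the states in AhR-/-. With the hematopoietic covariate, 0 genes and 0 of the 6 passed for AhR-/- against WT after HDM, and without the Y-high libraries 0 and 0, with 0 genes between the knockout labels and 2 of the 6 between the states in CYP1B1-/-. The signs that changed belonged to differences that had not passed. They were Npas2 for AhR-/- against WT after HDM (0.0107 without a filter and 0.18 without the Y-high libraries), and for CYP1B1-/- against WT after HDM with the covariate Arntl (-0.00264), Clock (-0.14) and Rora (-0.18). Without the Y-high libraries they were also Clock (-0.16) and Rora (0.0306) between the states in AhR-/- and Nfil3 in its interaction (0.35). Rora in the CYP1B1-/- interaction was 0.0623 with DESeq2, 0.0622 with RLE, 0.0742 without a filter and 0.0743 without the Y-high libraries. Over fits that each left out a library, genes passing ranged from 0 to 8 for AhR-/- against WT at steady state (0 to 2 of the 6), 0 to 4 for CYP1B1-/- against WT, 0 to 7 between the knockout labels (0 to 2), 0 to 4137 for AhR-/- against WT after HDM (0 to 4), 0 to 3098 between the knockout labels after HDM (0 to 3), 1532 to 3995 between the states in AhR-/- (0 to 2), 4410 to 5956 in CYP1B1-/- (1 to 4), 0 to 1017 for the AhR-/- interaction (0 to 1) and 0 to 1 for the CYP1B1-/- interaction. Differences whose sign changed there ranged, at steady state, from -0.18 to 0.36 for Clock and -0.0417 to 0.27 for Rora between the knockout labels, and from -0.36 to 0.0888 for Arntl, -0.36 to 0.38 for Npas2, -0.23 to 0.53 for Cry1 and -0.18 to 0.14 for Rora between CYP1B1-/- and WT. After HDM they ranged from -0.39 to 0.23 for Npas2 in AhR-/- against WT, and from -0.0246 to 0.36 for Clock and -0.23 to 0.48 for Rora in CYP1B1-/- against WT. Between the states in AhR-/- they ranged from -0.13 to 0.33 for Clock and -0.30 to 0.0361 for Rora, in the AhR-/- interaction from -0.19 to 0.24 for Cry1 and -0.89 to 0.33 for Nfil3, and in the CYP1B1-/- interaction from -0.0634 to 0.44 for Arntl and -0.26 to 0.45 for Rora. The cause of these shifts was not tested. The fewest reads behind a value were those of Npas2, Nfil3 and Cry1 in HDM library 3 labelled AhR-/-, with 6, 7 and 8.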
